A study of Mus musculus with 5 samples.

Results

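Ribosome biogenesis is described here through 53 genes of RNA polymerase I transcription, ribosomal RNA modification and processing, and nucleolar structure, in common lymphoid progenitors (CLPs) of the mouse bone marrow. The rule that defines the genes uses their names and no measured value, though the set was drawn up with earlier results of these data known. They were found by matching their symbols to Ensembl identifiers of the GRCm38 build. All 53 passed the filter on low counts, out of 14423 genes tested and 55487 gene identifiers in all. They fall into 8 genes of RNA polymerase I transcription, 8 protein genes of small nucleolar ribonucleoproteins (snoRNPs), 21 genes of small subunit processing, 13 of large subunit processing and 3 general nucleolar genes. Of the libraries, 3 came from SF1 mice, which carry SclCre and JAK2-V617F, and 2 from wild-type (WT) mice, and the comparison asks which genes differ in CLPs that carry the mutant kinase. In both genotypes the marrow was taken 16 weeks after tamoxifen, which switches on inducible Cre enzymes, so the WT mice had received the drug too. JAK2-V617F is a constantly active form of the cytokine receptor kinase JAK2. The Cre is driven by regulatory elements of Scl, a gene of blood stem and progenitor cells, so the model alters the blood cells that arise from such cells as well as CLPs. The cells were sorted as negative for lineage markers and positive for CD127, the receptor for interleukin 7, and for the cytokine receptor Flt3. The sources used here give neither the age of the mice, nor the share of sorted cells that had recombined, nor the number of animals behind a library. The p-values therefore measure only how far these 5 libraries spread.

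Ribosomes are built in the nucleolus. RNA polymerase I copies the ribosomal DNA repeats into a long precursor, snoRNPs guide methylation and pseudouridylation of that precursor, and large assemblies of processing factors cut it into the RNAs of the small and the large subunit while ribosomal proteins bind. The genes of these steps are transcribed by RNA polymerase II, many of them are known targets of the transcription factor Myc, and demand for them is high in growing and dividing progenitors.

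The SF1 libraries held 9350767 to 11290082 counts, and WT replicates 1 and 2 held 20424296 and 8894288. Levels are CPM (counts scaled to the same total in each library) after TMM scaling. The sort's own genes, Flt3 and Il7r, which encodes CD127, were present in every library, at 1594 to 1700 and 421 to 465 CPM in SF1 and at 1514 and 1511 and at 331 and 371 CPM in WT replicates 1 and 2. All 10 markers listed for CLPs and early lymphoid cells were detected, with a summed level of 12013 to 12694 CPM in SF1 and 11179 to 11584 CPM in WT. That sum is mostly Dntt, Ighm and Flt3. By the test described below, 3 of the 10 markers were called higher and 1 lower. Ly6d was at 951, 983 and 1033 CPM in SF1 and at 512 and 529 CPM in WT. Rag1 was at 113, 64.5 and 63.9 CPM in SF1 and at 182 and 138 CPM in WT. Neutrophil genes were also present and differed between the genotypes, and their values stand beside the results further on. Each of the 53 genes had at least 224 counts in every library.

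Most of the 53 ribosome biogenesis genes were lower in SF1 CLPs. With the quasi-likelihood test of edgeR and Benjamini-Hochberg adjustment across the genes tested, 35 of the 53 fell, none rose and 18 did not pass, so that 66.0% were called lower. Over all genes tested, 9.74% were called lower and 6.77% higher. Every one of the 53 had a mean above 20 CPM, and among the 8320 genes at or above that level 14.1% were called lower. Among 128 further genes of the pathway, listed further on, 22 were called lower, or 17.2%. The share of the 53 therefore does not speak for the whole pathway. No gene among the 53 was above 0 on the log2 scale with an unadjusted p under 0.05, and none was called higher by DESeq2 or limma voom. In bulk RNA, fewer cells of a type and less RNA per cell cannot be told apart.

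The changes were mostly modest. The median log2 fold change of the 53 genes, SF1 over WT, was -0.42, against 0.02 over all genes tested and -0.02 over the genes of at least 20 CPM. Among the 35 called genes the decrease ran from 1.23-fold for Nop58 to 2.75-fold for Tcof1, and it exceeded 2-fold for 3 genes, Tcof1, Nol6 and Rrp12. Read together, the 53 genes held 7533, 7366 and 6891 CPM in SF1 replicates 1, 2 and 3, against 9744 and 9629 CPM in WT replicates 1 and 2. All 3 SF1 sums therefore lay below both WT sums. Gene by gene, all SF1 libraries lay below both WT libraries for 40 genes, or 75.5%, a pattern that 24.2% of the genes tested had. These 40 include all 35 called genes and also Polr1a, Ubtf, Dkc1, Rcl1 and Wdr12, which did not pass. The groups overlapped for 12 genes, and for 1, Imp4, every SF1 library lay above both WT libraries.

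**Figure D1:**
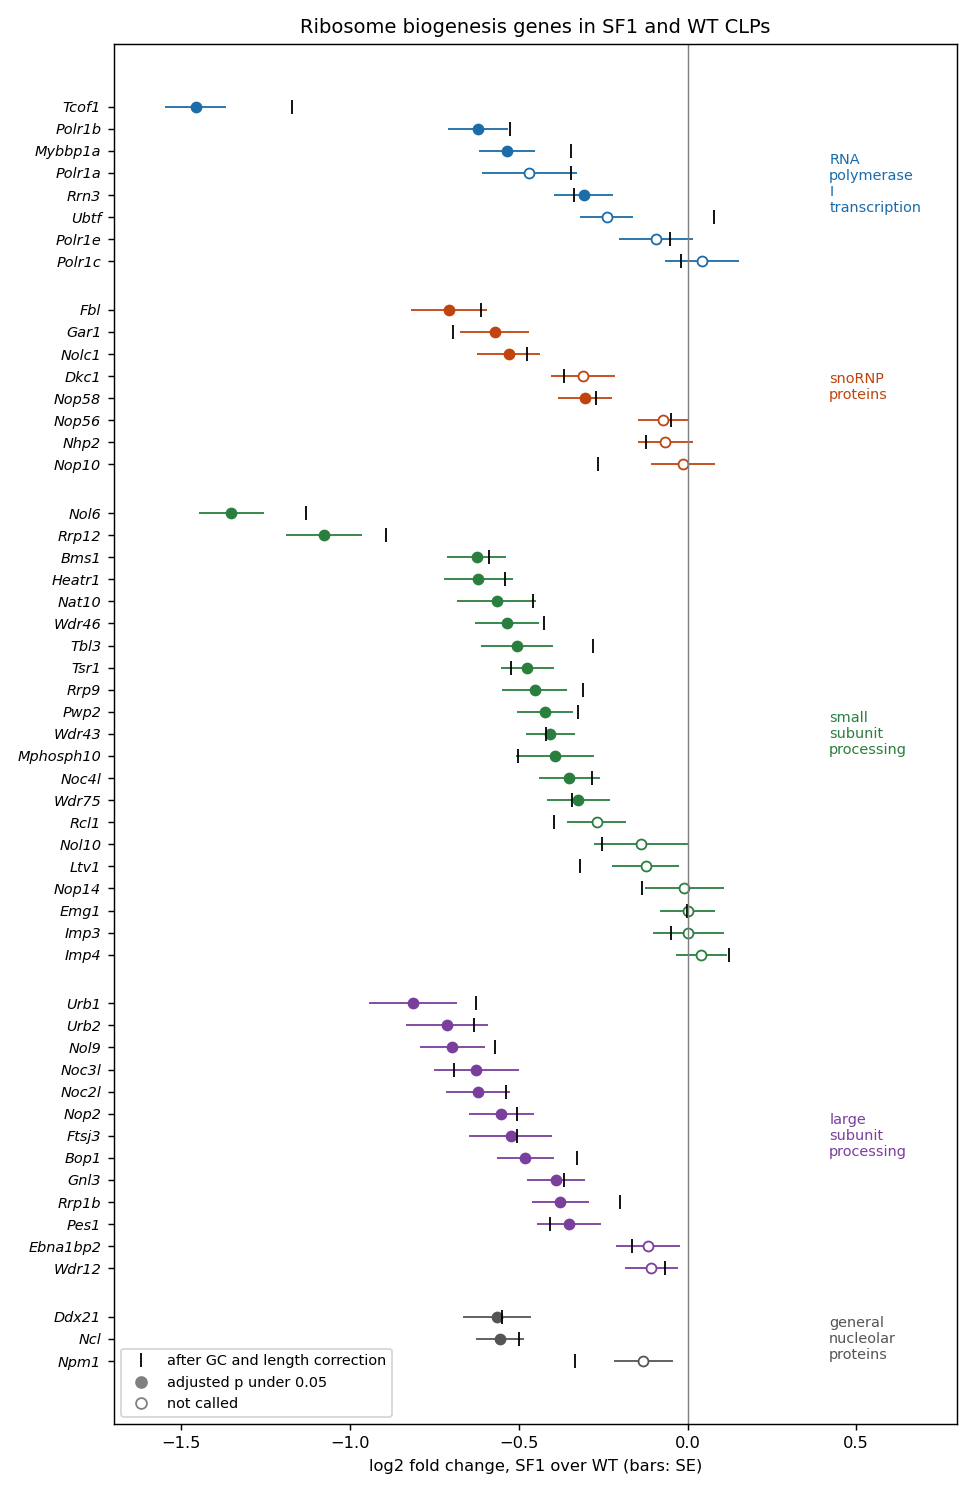
Log2 fold change, SF1 over WT, of the 53 ribosome biogenesis genes, grouped by role; filled points passed the adjusted p of 0.05, open points did not, bars are standard errors and black ticks are the values after GC and length correction. The called points lie between -0.30 and -1.46, and none of the points to the right of 0 is filled.

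In RNA polymerase I transcription, 4 of 8 genes fell, Tcof1, Polr1b, Mybbp1a and Rrn3, and 4 did not pass. The summed level of the 8 was 1034, 999 and 968 CPM in SF1, against 1544 and 1429 CPM in WT. Tcof1 encodes treacle, a nucleolar scaffold that brings the polymerase and its factors to ribosomal DNA and that is mutated in human Treacher Collins syndrome. It lies on chromosome 18 between 60813755 and 60848971. Tcof1 was at 120, 102 and 119 CPM in SF1 replicates 1, 2 and 3, and at 316 and 307 CPM in WT replicates 1 and 2. The groups were far apart, and Tcof1 had the largest decrease of the 53 genes (log2 fold change -1.46, SE 0.09, adjusted p = 0.000106). Polr1b, one of the catalytic subunits of the polymerase, was at 82.3, 82.1 and 81.6 CPM in SF1 and at 134 and 118 CPM in WT. The SF1 libraries were nearly equal and all below WT (82.0 ± 0.361 CPM in SF1, SD, n = 3, and 126 ± 11.3 CPM in WT, n = 2; log2 fold change -0.62, SE 0.09, adjusted p = 0.00262). Mybbp1a, a nucleolar Myb-binding protein that acts in polymerase I regulation and precursor processing, was at 371, 374 and 341 CPM in SF1 and at 555 and 492 CPM in WT. This is a 1.45-fold decrease (adjusted p = 0.00389), well outside the spread of the SF1 libraries. Rrn3, the initiation factor that joins the polymerase to its promoter, was at 86.1, 92.5 and 82.4 CPM in SF1 and at 110 and 106 CPM in WT. Its 1.24-fold decrease passed narrowly (adjusted p = 0.0446) and was lost when any 1 of the 5 libraries was left out (adjusted p of 0.0805, 0.0605 and 0.134 without SF1 replicates 1, 2 and 3, and 0.223 and 0.0878 without WT replicates 1 and 2).

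The other catalytic subunit gene, Polr1a, was at 84.2, 63.7 and 64.8 CPM in SF1 and at 107 and 88.5 CPM in WT. The groups did not overlap, but the spread within both was wide and the difference missed the threshold (log2 fold change -0.47, SE 0.14, adjusted p = 0.051). It passed without SF1 replicate 1 (0.0141), its highest SF1 library, and did not pass without SF1 replicate 2 or 3 (0.151 and 0.151). Leaving out WT replicate 1 or 2, which leaves 1 WT library, gave log2 fold changes of -0.32 and -0.60. Ubtf, the upstream binding factor that keeps active ribosomal DNA open, was at 189, 179 and 184 CPM in SF1 and at 225 and 209 CPM in WT (log2 fold change -0.24, adjusted p = 0.0676). After the GC and length correction described further on, its log2 fold change was 0.08, so its direction depends on that correction. Polr1c, a subunit shared with RNA polymerase III, and Polr1e, a subunit of polymerase I alone, had overlapping groups, with log2 fold changes of 0.04 and -0.09 (adjusted p = 0.829 and 0.608). The sign of Polr1c turned in 3 of the 15 alternative settings.

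Among the snoRNP proteins, 4 of 8 fell, Fbl, Nop58, Gar1 and Nolc1, and 4 did not pass. Box C/D snoRNPs, which guide methylation, are built on fibrillarin, Nop56 and Nop58. Fbl encodes fibrillarin, the methyltransferase itself (chromosome 7, 28169710 to 28179269). It was at 55.4, 49.6 and 45.4 CPM in SF1, against 78.1 and 85.8 CPM in WT, and the groups were well apart (log2 fold change -0.71, SE 0.11, adjusted p = 0.00426). Nop58 was at 205, 209 and 188 CPM in SF1 and at 250 and 246 CPM in WT. This was the smallest decrease among the called genes (1.23-fold, adjusted p = 0.0326), and leaving out SF1 replicate 2 or 3 ended the call (adjusted p = 0.0657 and 0.103), as did leaving out WT replicate 1 or 2 (0.15 and 0.0742). Nop56, which pairs with Nop58 in the particle, was at 403, 401 and 373 CPM in SF1 and at 424 and 401 CPM in WT. Its groups overlapped and it did not pass (log2 fold change -0.07, adjusted p = 0.553). Per kilobase of exon, Nop56 had 95.7 CPM in SF1 against 101 CPM in WT, and Fbl had 11.9 CPM in SF1 against 19.5 CPM in WT. The exon length takes all annotated transcripts of a gene together and can exceed that of its RNA, so these values do not rank the genes.

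Box H/ACA snoRNPs, which guide pseudouridylation, hold dyskerin, Gar1, Nhp2 and Nop10. Gar1 was at 44.6, 42.7 and 45.1 CPM in SF1, against 62.5 and 68.9 CPM in WT, with no overlap and a 1.49-fold decrease (adjusted p = 0.00689). Dkc1, which encodes dyskerin, the pseudouridine synthase, was at 291, 347 and 289 CPM in SF1 and at 384 and 382 CPM in WT. SF1 replicate 2 lay closer to WT than the other SF1 libraries did, and Dkc1 missed the threshold (log2 fold change -0.31, adjusted p = 0.0548). It passed without that library (0.0298), and did not pass without SF1 replicate 1 or 3 (0.113 and 0.156). Nhp2 and Nop10, the small core proteins, had overlapping groups, at 130 to 134 and 200 to 227 CPM in SF1 and at 132 to 143 and 198 to 229 CPM in WT (adjusted p = 0.627 and 0.94). Nolc1, a nucleolar chaperone of both classes of particle, was at 198, 178 and 165 CPM in SF1 and at 251 and 269 CPM in WT, a 1.44-fold decrease (adjusted p = 0.00627). Whether the members of a particle differed from each other in their response was not tested.

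**Figure D2:**
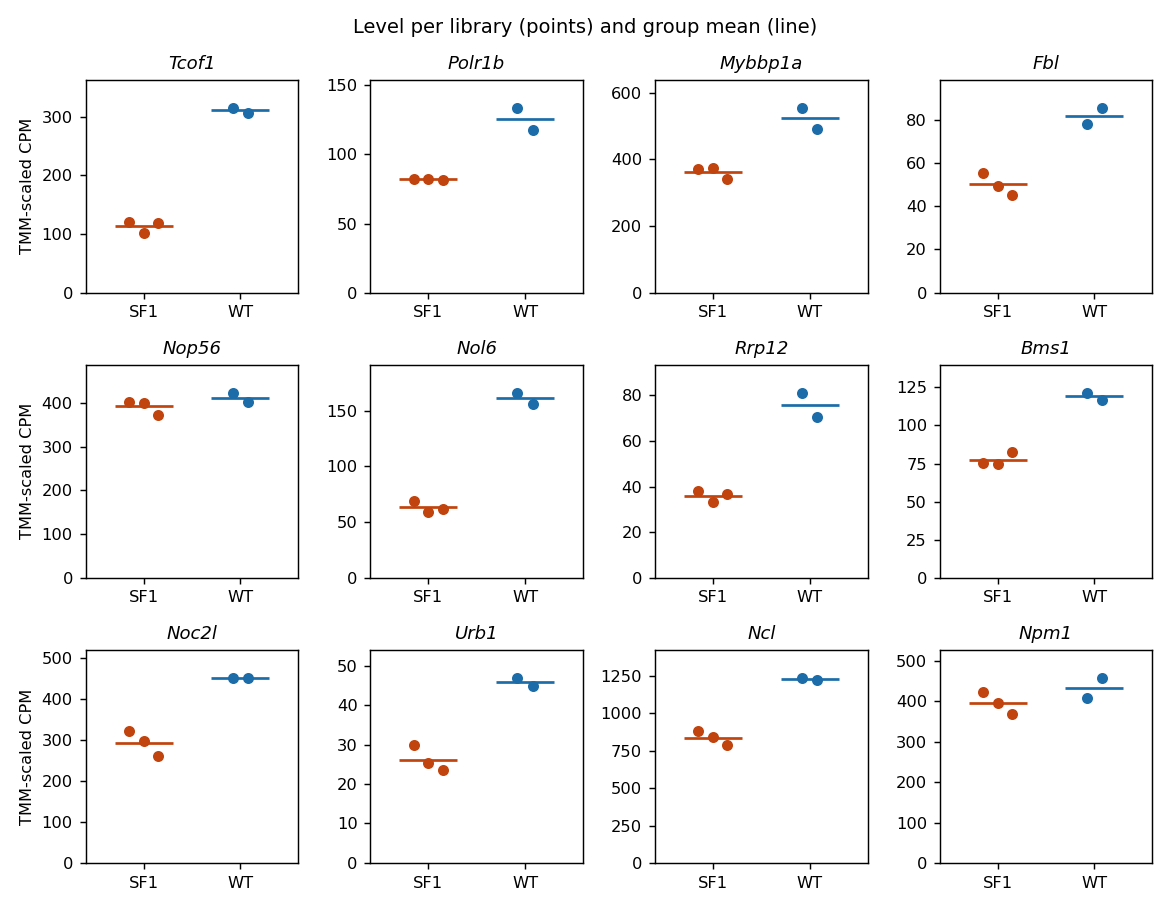
TMM-scaled CPM of 12 ribosome biogenesis genes in each library, SF1 left of WT; points are libraries and lines are group means, on linear axes from 0. In 10 of the panels all SF1 points lie below both WT points, while Nop56 and Npm1 overlap.

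Small subunit processing had 14 of 21 genes lower, with a median log2 fold change of -0.41. The summed level of the 21 was 1935, 1910 and 1812 CPM in SF1, against 2505 and 2460 CPM in WT. The small subunit processome is the large particle that forms on the nascent precursor, and Nol6, known from its yeast counterpart as a structural component of it, had the largest decrease of the group. Nol6 (chromosome 4, 41114427 to 41124455) was at 69.4, 59.0 and 61.3 CPM in SF1, against 166 and 156 CPM in WT. All SF1 libraries lay far below both WT libraries, and the decrease was 2.55-fold (log2 fold change -1.35, SE 0.10, adjusted p = 0.000161). Rrp12 (chromosome 19, 41862851 to 41896173), which in yeast acts in the export of pre-ribosomes, was at 38.1, 33.4 and 36.7 CPM in SF1 and at 81.2 and 70.6 CPM in WT, a 2.11-fold decrease (SE 0.11 on the log2 scale, adjusted p = 0.000717). Bms1, a GTPase of the processome, was at 75.1, 74.6 and 82.4 CPM in SF1 and at 122 and 117 CPM in WT. Tsr1, a factor of late small subunit maturation, was at 119, 117 and 112 CPM in SF1 and at 161 CPM in both WT libraries. Both were lower by more than the spread within either group (1.54-fold and 1.39-fold, adjusted p = 0.00248 and 0.00483). Wdr43, a processome subunit that also supports precursor transcription, was at 231, 237 and 223 CPM in SF1 and at 308 and 302 CPM in WT (1.33-fold lower, adjusted p = 0.00714). Heatr1, which has the same dual role, was at 110, 120 and 101 CPM in SF1 and at 182 and 157 CPM in WT (1.54-fold lower, adjusted p = 0.00513).

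The other 8 called genes of small subunit processing were Noc4l, Rrp9, Pwp2, Wdr46, Wdr75, Tbl3, Nat10 and Mphosph10, with decreases of 1.25-fold to 1.48-fold. Nat10, the enzyme that acetylates cytidines of the small subunit RNA, was at 79.4, 82.8 and 64.2 CPM in SF1 and at 116 and 107 CPM in WT (adjusted p = 0.0131). Each of these 8 calls was lost in at least 1 fit that left out 1 library, and a fit without a WT library leaves 1 WT library. Without WT replicate 1 all 8 missed the threshold, with adjusted p-values between 0.0557 for Wdr46 and 0.165 for Mphosph10. Wdr75 was lost without any 1 library (0.0658 to 0.188), Mphosph10 without any but SF1 replicate 1 (0.125 to 0.165), Noc4l without any but SF1 replicate 2 (0.0578 to 0.12), and Rrp9 also without SF1 replicate 2 (0.0527). The remaining 7 genes, Nop14, Nol10, Rcl1, Ltv1, Emg1, Imp3 and Imp4, did not pass, with log2 fold changes between -0.27 for Rcl1 and 0.04 for Imp4. Emg1, a methyltransferase of the small subunit RNA, showed how close some of these were, with 166, 152 and 154 CPM in SF1 and 153 and 161 CPM in WT. Imp3, Imp4 and Mphosph10 form a complex on the U3 snoRNA, and of these 3 only Mphosph10 was called.

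Large subunit processing had the largest called share of the roles with more than 3 genes, 11 of 13, with a median log2 fold change of -0.52. The summed level was 1594, 1541 and 1419 CPM in SF1, against 2126 and 2057 CPM in WT. Noc2l, which escorts early large subunit precursors in complex with its Noc partners, was at 322, 299 and 261 CPM in SF1 and at 453 and 451 CPM in WT (1.54-fold lower, adjusted p = 0.0034). Nol9, a polynucleotide kinase that acts on the cut precursor, was at 77.5, 72.7 and 75.0 CPM in SF1 and at 131 and 112 CPM in WT (1.62-fold lower, adjusted p = 0.00228). In both genes the groups were clearly apart. Urb1, known from yeast as an early large subunit assembly factor, was at 29.9, 25.3 and 23.4 CPM in SF1 and at 46.9 and 45.0 CPM in WT, the largest decrease of this role (1.76-fold, log2 fold change -0.81, SE 0.13, adjusted p = 0.00418). Its partner in the yeast particle, Urb2, was at 57.7, 59.5 and 48.7 CPM in SF1 and at 98.3 and 82.2 CPM in WT (1.64-fold lower, adjusted p = 0.00579; 0.0527 without WT replicate 1). Nop2, a methyltransferase of the large subunit RNA, was at 153, 149 and 127 CPM in SF1 and at 207 and 212 CPM in WT (1.47-fold lower, adjusted p = 0.00608).

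Pes1, Bop1 and Wdr12 form the PeBoW complex of large subunit assembly. Bop1 was at 123, 124 and 111 CPM in SF1, against 170 and 163 CPM in WT, and fell (1.40-fold, adjusted p = 0.00636). Pes1 was at 116, 129 and 107 CPM in SF1, against 152 and 148 CPM in WT. It was called lower (1.27-fold, adjusted p = 0.0368), but not without SF1 replicate 1 or 3 (0.0689 and 0.113) or WT replicate 1 or 2 (0.173 and 0.0761). Wdr12 was at 151, 165 and 153 CPM in SF1 and at 169 and 168 CPM in WT, with all SF1 libraries below WT by little (log2 fold change -0.11, adjusted p = 0.393). Also called were Noc3l, Rrp1b, Gnl3, which encodes the GTPase nucleostemin, and the methyltransferase gene Ftsj3, by 1.3-fold to 1.54-fold. Those 4 calls were lost without WT replicate 1 (adjusted p of 0.0958 to 0.117), Rrp1b and Gnl3 also without SF1 replicate 3 (0.0583 and 0.0561), and Ftsj3 also without SF1 replicate 2 or 3 or WT replicate 2 (0.0811, 0.0804 and 0.0563). Ebna1bp2 was not called (log2 fold change -0.12, adjusted p = 0.436).

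Of the general nucleolar genes, Ncl and Ddx21 fell and Npm1 did not pass. Ncl encodes nucleolin, an abundant nucleolar RNA-binding protein (chromosome 1, 86344719 to 86359400). It was at 883, 844 and 786 CPM in SF1, against 1237 and 1223 CPM in WT, a separation much wider than the spread within either group (837 ± 48.7 CPM in SF1, SD, n = 3, and 1230 ± 9.76 CPM in WT, n = 2; log2 fold change -0.56, SE 0.07, adjusted p = 0.00172). Ddx21, an RNA helicase of ribosomal RNA transcription and processing, was at 111, 111 and 103 CPM in SF1 and at 145 and 176 CPM in WT (1.48-fold lower, adjusted p = 0.00683). Npm1 encodes nucleophosmin, the chaperone of the outer nucleolus that is mutated in human acute myeloid leukaemia. It was at 422, 396 and 368 CPM in SF1 and at 408 and 458 CPM in WT, so the highest SF1 library lay above the lower WT library (log2 fold change -0.13, SE 0.09, adjusted p = 0.34). Per kilobase of exon, nucleophosmin RNA had 148 CPM in SF1 against 163 CPM in WT, and nucleolin RNA had 82.2 CPM in SF1 against 121 CPM in WT. The exon length takes all annotated transcripts together, 2665 bases for Npm1 and 10188 for Ncl. It can exceed the length of the RNA, so these values do not rank the genes.

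Some of these genes share exon bases with a neighbour on the opposite strand, and the library kit does not mark strand. More than 10% of the exon bases were shared for 3 of the 53, Tbl3 (37.3%, with Noxo1), Tsr1 (32.3%, with Srr) and Noc2l (20.9%, with Samd11). Reads there cannot be told apart, so the values of these 3 genes are less certain.

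GC content and transcript length differ between genes, and amplification of full-length cDNA can favour some of them unequally between libraries. The 53 genes had a median exon GC content of 49.99% and a median exon length of 4209 bases, against 49.0% and 3910 bases over the genes tested. Both are taken over all annotated exons of a gene together, and can differ from those of the RNA that was amplified. Within the 53, the called genes were longer and richer in GC, with medians of 4775 bases and 51.9%, against 3287 bases and 48.4% for those not called. Of the 7 genes under 2500 bases 1 was called, Gar1, and of the other 46 genes 34 were. Across the 53 genes the log2 fold change had a Spearman rho of -0.27 with GC content and -0.34 with length. Across 14403 genes the same correlations were -0.13 and -0.19. These are correlations across genes that share the same 5 libraries, given as a description.

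As a check against GC and length, a smooth trend of the level on each was removed from every library before the test. The trends come from these same libraries, so a genotype difference that follows GC or length is removed too. It cannot be told apart from an amplification bias. After that correction 35 of the 53 genes were again lower and none higher, against 8.09% of all genes called lower and 11.6% of those of at least 20 CPM. The median log2 fold change was -0.37, and the correlations with GC content and length became -0.07 and -0.17. The trend removed amounted to a difference between SF1 and WT of -0.32 to 0.26 per gene on the log2 scale, with a median of -0.04. In both fits 31 genes were called and in neither 14. Noc4l, Rrp9, Tbl3 and Rrp1b were called only without the correction (corrected adjusted p of 0.0561 to 0.141), and Dkc1, Rcl1, Ltv1 and Npm1 only with it (corrected adjusted p of 0.0138 to 0.0468). Tcof1 kept a corrected log2 fold change of -1.17, Nol6 of -1.13 and Rrp12 of -0.89 (adjusted p = 0.000108, 0.000211 and 0.00108). The corrected values by role were medians of -0.34 for RNA polymerase I, -0.32 for snoRNPs, -0.34 for the small subunit, -0.50 for the large subunit and -0.50 for the general nucleolar genes.

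**Figure D3:**
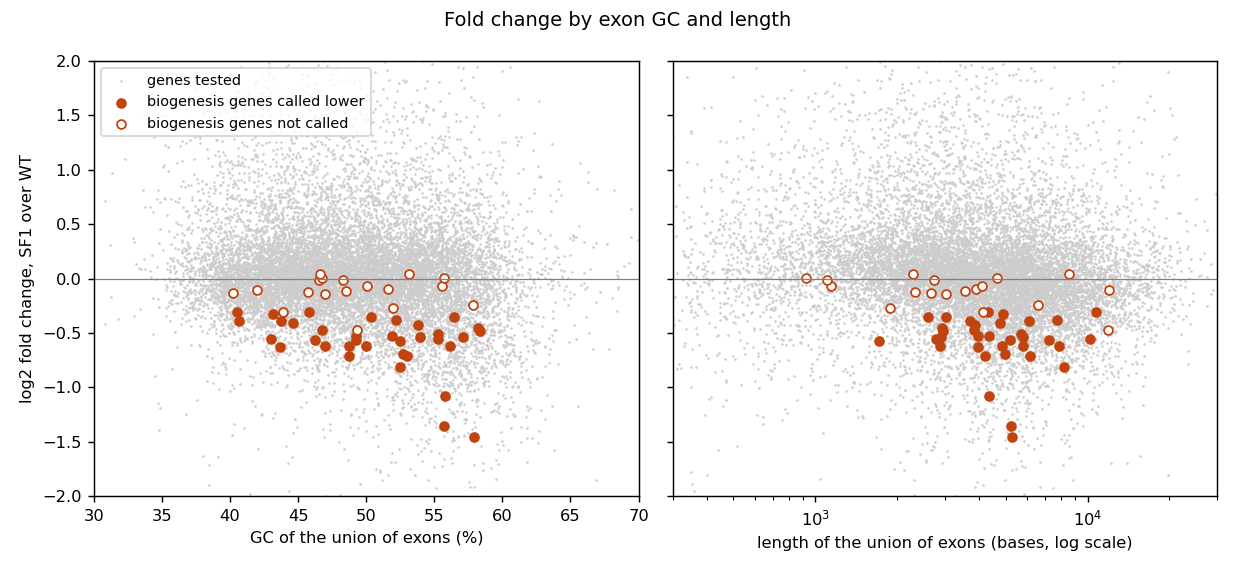
Log2 fold change, SF1 over WT, against exon GC content in percent and against exon length in bases on a log axis, with the 53 ribosome biogenesis genes, filled where called lower and open otherwise, drawn over all genes tested. The ribosome biogenesis genes lie mostly below 0 across the range of both properties; the axes leave out 203 genes beyond 2 on the log2 scale, 28 outside the GC axis and 127 outside the length axis.

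Further genes of the same pathway were listed by role. Among 128 tested further genes of polymerase I, snoRNPs and RNA modification, small and large subunit processing and the RNA exosome, 22 were called lower and none higher, or 17.2%, with a median log2 fold change of -0.10. The share called lower was 9.74% over all genes tested and 14.1% over those of at least 20 CPM. The counts of each list below are to be read beside these shares. Whether the 53 genes and these 128 differ was not tested. Small subunit processing had 8 of 38 lower, large subunit processing 11 of 46, the exosome 2 of 15, snoRNPs and modification 1 of 15, and the other polymerase I genes 0 of 14. The largest decreases among them were those of Ddx54, an RNA helicase (log2 fold change -1.15, adjusted p = 0.000343), Coil, the scaffold of Cajal bodies where snoRNPs mature (-1.10, adjusted p = 0.000852), and Rrs1, a large subunit assembly factor (-0.90, adjusted p = 0.000943). The 77 cytosolic ribosomal protein genes were not lower, with 0 called lower, 2 higher and a median log2 fold change of 0.06, which was -0.03 after GC and length correction. Their summed level was 17284, 15372 and 16437 CPM in SF1, and 14200 and 16428 CPM in WT, so the groups overlapped. Mitochondrial ribosomal protein genes had 1 of 30 lower and none higher, with a median of 0.03. Proliferation genes, which often move with ribosome production, had 4 of 23 lower (Plk1, Bub1, Mcm4 and Mcm7), none higher and a median of -0.16.

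Myc, the transcription factor best known for driving ribosome biogenesis genes, was at 558, 369 and 387 CPM in SF1, against 786 and 820 CPM in WT. All SF1 libraries lay below WT, and SF1 replicate 1 was the closest of them to it (log2 fold change -0.87, SE 0.16, adjusted p = 0.00663). GC and length correction left this value nearly as it was (-0.86, adjusted p = 0.00661). Among the 12 tested genes of the Myc network, Myc and Mnt, a Myc antagonist, were lower, and Mycl, a relative of Myc, was higher (log2 fold change 0.68, adjusted p = 0.0233). After GC and length correction 1 of the 12, Myc, was lower and 4 were higher: Mnt did not pass (-0.57, adjusted p = 0.0905), while Mycl (0.87) and the Max partners Mxd1, Mxd3 and Mxd4, which oppose Myc, were higher (0.49, 0.52 and 0.47, adjusted p = 0.0442, 0.0449 and 0.0169). Mycn did not pass (log2 fold change -0.01, adjusted p = 0.949). The part of Myc in the ribosome biogenesis genes was not tested.

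**Figure D4:**
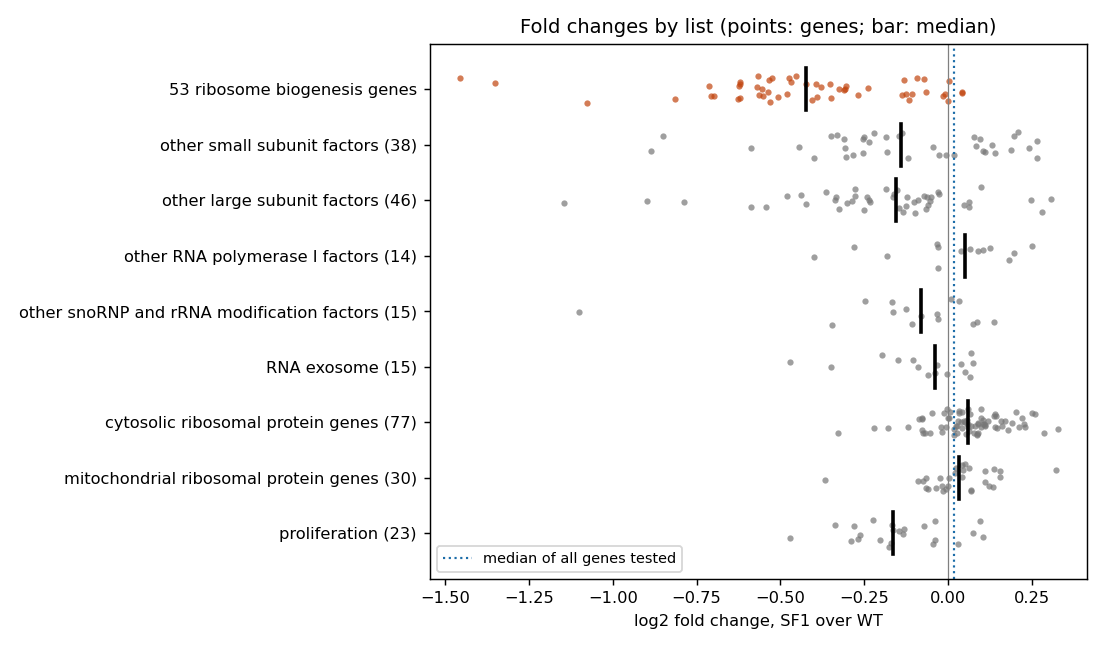
Log2 fold change, SF1 over WT, of the 53 ribosome biogenesis genes and of the comparison lists, with genes as points, black bars at the median of each list and a dotted line at the median of all genes tested. The bar of the 53 genes lies at -0.42, left of those of the other lists, and the bars of the cytosolic and mitochondrial ribosomal protein genes lie at 0.06 and 0.03.

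Myc binds DNA with its partner Max at the E-box CACGTG, and the promoters of the 53 genes were searched for it because Myc fell with them. RefSeq windows on GRCm38.p6, from 250 bases before to 50 after a start, matched 46 of the 53 genes with 56 windows. The others are Tbl3, Npm1, Tcof1, Nol6, Fbl, Rrp12 and Bop1. Some genes had more than 1 window, and a match in any of them counted for the gene. The E-box was present in 9 of the 46 genes, or 19.6%, against 8.07% of all other genes and 12.7% of the other genes of at least 20 CPM. It was present in 7 of 29 called genes and in 2 of 17 not called. The CGCG element core CTCGCGAG was in 2 of the 46 genes (4.35%, against 1.03% of all other genes and 2.66% of those of at least 20 CPM), and the NRF1 element core CGCATGCG was in 1 (2.17%, against 2.07% and 5.28%). All 3 motifs are palindromes, so a match reads the same on both strands. A match is a description of these letters, and binding was not measured. The windows of the 4 called genes with an E-box and the smallest p are printed 5′ to 3′, with these motifs in capitals, since they show where the E-box stands beside the start: 40 and 24 bases after it in Mybbp1a and Tsr1, and 60 and 12 bases before it in Nop2 and Wdr46. All 4 lie on the plus strand, Mybbp1a at chr11:72441077-72441376, Tsr1 at chr11:74897830-74898129, Nop2 at chr6:125131633-125131932 and Wdr46 at chr17:33940473-33940772. Tsr1 also holds the CGCG element core.
Mybbp1a: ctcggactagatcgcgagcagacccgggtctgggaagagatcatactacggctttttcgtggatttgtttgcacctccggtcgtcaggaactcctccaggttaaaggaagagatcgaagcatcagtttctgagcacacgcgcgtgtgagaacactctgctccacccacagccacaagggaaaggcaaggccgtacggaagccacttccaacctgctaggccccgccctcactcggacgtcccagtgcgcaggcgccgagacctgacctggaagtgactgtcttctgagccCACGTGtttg
Tsr1: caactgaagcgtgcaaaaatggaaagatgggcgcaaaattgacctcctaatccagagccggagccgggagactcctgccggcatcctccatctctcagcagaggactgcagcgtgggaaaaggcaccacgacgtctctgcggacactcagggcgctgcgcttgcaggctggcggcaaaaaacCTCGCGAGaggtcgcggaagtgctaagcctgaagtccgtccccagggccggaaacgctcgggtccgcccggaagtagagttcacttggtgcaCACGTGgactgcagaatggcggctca
Nop2: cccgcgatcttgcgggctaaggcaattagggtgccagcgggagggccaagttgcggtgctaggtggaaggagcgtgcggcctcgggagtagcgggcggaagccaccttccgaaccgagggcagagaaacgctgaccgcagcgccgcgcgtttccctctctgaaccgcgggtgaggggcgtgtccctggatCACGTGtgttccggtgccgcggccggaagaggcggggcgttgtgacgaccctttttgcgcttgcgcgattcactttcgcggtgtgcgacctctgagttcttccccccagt
Wdr46: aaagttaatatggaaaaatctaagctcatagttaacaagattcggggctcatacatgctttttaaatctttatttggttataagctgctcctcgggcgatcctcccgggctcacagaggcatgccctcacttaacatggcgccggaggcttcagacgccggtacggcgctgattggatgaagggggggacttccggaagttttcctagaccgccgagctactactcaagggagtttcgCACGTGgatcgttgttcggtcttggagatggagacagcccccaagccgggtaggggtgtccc

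Single libraries weighed on the number of calls more than on the direction. Of the 35 called genes, 19 were called in each of the 5 fits that left out 1 library, among them Tcof1, Polr1b, Mybbp1a, Fbl, Nol6, Rrp12, Bms1, Noc2l, Urb1, Ncl and Ddx21. Rrn3 and Wdr75 were lost in all 5. Without WT replicate 1, the deepest library, 19 of the 53 genes (35.8%) were called lower, against 3.49% of all genes tested in that fit. The median log2 fold change of the 53 genes stayed between -0.40 and -0.48 in these fits. Within SF1, replicate 3 was the lowest library for 34 of the 53 genes, replicate 2 for 16 and replicate 1 for 3. The coefficient of variation among the SF1 libraries had a median of 6.15% over the 53 genes.

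Genes listed as markers of other cell types differed between the genotypes as well. The 13 neutrophil genes, all higher in SF1, summed to 1333, 1789 and 4557 CPM in SF1 replicates 1, 2 and 3, against 151 and 206 CPM in WT, and thus to at most 0.456% of the counts of an SF1 library. SF1 replicate 3 had the highest sum of neutrophil genes and was most often the lowest SF1 library for the ribosome biogenesis genes. Without it, 26 of the 53 genes (49.1%) were called lower, against 5.87% of all genes tested in that fit. Dendritic cell genes summed to 1992 to 2485 CPM in SF1 and 1148 to 1313 CPM in WT, with 6 of 8 higher. Klk1 was at 0 in SF1 and at 0.0503 and 0 CPM in WT replicates 1 and 2. Plasma cell genes summed to 778 to 1005 CPM in SF1 and 363 to 399 CPM in WT, with 3 of 7 higher. Most of the WT sum was Xbp1 (205 and 240 CPM) and Sdc1 (153 and 154 CPM). Igkc, Igha and Jchain were at 136 to 185, 145 to 268 and 31.8 to 85.1 CPM in SF1. In WT they were at most at 0.604, 0.911 and 1.36 CPM. Mzb1 was at 0.638 to 1.01 CPM in SF1 and at 1.21 and 2.16 CPM in WT. Iglc1 was at 0 in SF1 and at 0 and 0.114 CPM in WT. B-cell genes summed to 856 to 1131 CPM in SF1 and 1304 to 1482 CPM in WT, with 6 of 7 lower. Erythroid genes summed to 77.1 to 101 CPM in SF1 and 182 to 205 CPM in WT, with 6 of 8 lower. Car2 made up most of the erythroid sum, at 74.9, 71.3 and 93.3 CPM in SF1 and at 133 and 131 CPM in WT. Hba-a2 and Slc4a1 were at 0 in SF1. Monocyte and macrophage genes summed to 188 to 271 CPM in SF1 and 85.1 to 132 CPM in WT, with 4 of 10 higher, 4 lower and Cd5l at 0 in SF1. T and natural killer cell genes summed to 190 to 208 CPM in SF1 and 174 to 179 CPM in WT, with 1 of 5 tested higher. Nkg7 made up most of this sum, at 175, 149 and 154 CPM in SF1 and at 158 and 163 CPM in WT. Cd3e and Ncr1 were at 0 in SF1 and at most at 0.114 and 0.101 CPM in WT. Cd3g was at 0 in WT and at most at 0.0876 CPM in SF1. Whether the RNA of these lists came from other cells or from the CLPs themselves was not tested. Its part in the ribosome biogenesis result was not tested either.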

How the data were processed

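Per the labels' protocols, RNA with an integrity number above 7 went through SMART-Seq amplification (v2 or v4, not stated by library) and Nextera XT library preparation. The table that the authors deposited holds raw counts for each gene, not normalized. HISAT2 2.2.1, featureCounts 2.0.1, FastQC and GRCm38 are named in the submitters' processing notes. The sources used here do not give the annotation release, the strand setting or how reads with several matches were handled. There are no molecular identifiers, so PCR copies count as reads and counting error understates the error.

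Symbols, coordinates and exon sequence came from GENCODE M21 of the same build, which matched 55227 of 55487 identifiers; the other 260 hold 0.0123% of the counts. A count of 1 stood for 0.049 to 0.112 CPM. No replicates agreed within sampling noise (chi-square per degree of freedom 6.38 to 8.81), and none were merged; separately amplified libraries of the same RNA would differ by more than that noise too. SF1 and WT were compared with edgeR 4.0.16 (R 4.3.3): filterByExpr with a minimum count of 10, TMM scaling, the quasi-likelihood F test, no covariate, and Benjamini-Hochberg adjustment over all genes tested with a threshold of 0.05. Adjusted p-values come from that test where no other is named. The SE is the log2 fold change divided by the root of F. The biological coefficient of variation was 0.122. For the GC and length correction, smooths (mgcv 1.9.3, basis dimension 10) of log2 CPM with a prior count of 2 were fitted per library and entered as offsets.

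The 53 genes, the comparison lists and the tests were chosen with earlier results of these data known. Values per library are given for up to 4 called genes of each role with the smallest p, for the gene of each role with the highest mean CPM, and for Polr1a, Ubtf, Tcof1, Fbl, Dkc1, Npm1, Ncl, Nop56, Pes1 and Myc; other genes named singly were chosen after their values were seen. Alternatives were DESeq2 size factors, upper-quartile scaling, no and a stricter filter (mean of 5 CPM), DESeq2 1.42.0, voom with sample weights (limma 3.58.1), libraries thinned to the smallest, the replicate number as a block, GC or length alone, and leaving out each library. The comparison with genes of at least 20 CPM and the leave-one-out fits within the correction were added after seeing the data.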

Additional observations from a re-analysis of the deposited data

How the results depend on the processing

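With the other scalings, filters and tools, thinned libraries, the block, the GC and length correction with and without the block, and each library left out of the uncorrected fit, none of the 53 genes was called higher and the median log2 fold change lay between -0.33 and -0.48. The number called lower, 35 at first, was 29 with upper-quartile scaling, 34 with a stricter filter or libraries thinned to the smallest, and 37 with DESeq2 size factors, no filter, DESeq2's test or voom. Over all genes, upper-quartile scaling turned 977 higher and 1405 lower calls into 1293 and 1106. Of all genes tested, 1273 of 11042 were lower with the stricter filter and 1320 of 14142 in thinned libraries. With DESeq2 size factors 1443 of 14423 were lower, and by voom 1578 of 14423. With no filter 1961 of 26875 were lower, and by DESeq2's test 1508 of 26875. Leaving out 1 library gave 19 to 32 lower calls, the fewest without WT replicate 1, and, within the GC and length correction, 33, 27 and 21 without SF1 replicates 1, 2 and 3 and 16 and 24 without WT replicates 1 and 2. In those corrected fits 1154, 598, 689, 426 and 895 of all genes were lower, in the same order, against 1167 with all 5 libraries. The number called was 35 with that correction, 34 with GC alone and 31 with length alone. Of all genes, 1167, 1457 and 1212 were lower, in the same order. Which of the 53 genes these fits share was not counted. The cause of the lost calls was not tested.

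The replicate numbers are shared by the genotypes for 2 pairs only, and no label says that they mark a litter or a day. Deviations from the group means correlated at 0.036 and 0.065 across genes within the pairs, so the numbers are not read as pairing. With the replicate number as a replicate block, 23 of the 53 genes were called lower and none higher, and 945 of all genes were lower. SF1 replicate 3 is alone in its block, so the genotype effect in the blocked fits rests on the 2 pairs. With the block and the GC and length correction together, 24 were lower, and 886 of all genes.

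Signs turned for 6 of the 53 genes, Ubtf, Polr1c, Nop10, Nop14, Emg1 and Imp3, none of which was called in these alternatives. With GC and length correction the log2 fold change was 0.080 for Ubtf (0.10 with the block added), -0.020 for Polr1c, -0.048 for Imp3 and -0.0015 for Emg1. Nop10 and Nop14 were at 0.043 and 0.048 with upper-quartile scaling, 0.0074 and 0.013 with the stricter filter and 0.027 and 0.032 with the block, and Nop14 at 0.048 in thinned libraries. Emg1 and Imp3 were at -0.0051 and -0.0045 with DESeq2 size factors, -0.017 and -0.016 with no filter and -0.013 and -0.012 by DESeq2, Emg1 at -0.0023 by voom, and Imp3 at -0.0015 in thinned libraries. Leaving out 1 library gave -0.050 to 0.13 for Polr1c, -0.12 to 0.085 for Nop10, -0.11 to 0.048 for Nop14, -0.037 to 0.031 for Emg1 and -0.080 to 0.074 for Imp3.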
